A study of Mus musculus with 6 samples.

Results

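The regions described here are the wide ATRX domains of mouse embryonic fibroblasts (MEFs, connective-tissue cells grown in culture). They were chosen by measured width: a domain is a peak of the MEF ATRX list that spans at least 2000 bp from start to end. Chromosomes 3, 6, 10, 11 and 13 were left out, and 16 chromosomes were kept. By this rule 223 of the 2054 MEF peaks were domains. The other 1162 MEF peaks on the same 16 chromosomes, all under 2000 bp, are called narrower peaks below.

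The MEF list came from C57BL/6 cells by ChIP-seq, in which an antibody (here ATRX H300) pulls down the DNA bound by a protein for sequencing. The comparison list came from C57BL/6 foetal liver at E14.5 (embryonic day), from erythroid cells selected with an antibody to the red-cell marker Ter119. Both are wild type by the series' design, both were fixed with EGS and then formaldehyde, and each list stands for 1 library, so no value has a replicate check. The series also holds a C57BL/6 MEF input, ATRX and input libraries of MEFs labelled W8, and an ATRX library of Suv39h1/2 knockout MEFs, which were not analysed here. The labels do not state the age of the MEF embryos or their number. Peak lists hold no expression values, so neither cell type could be checked against its marker genes.

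ATRX is a chromatin remodelling enzyme of the SWI/SNF family. With its partner DAXX it places the histone variant H3.3 at telomeres, at the satellite repeats beside centromeres and at other repeat-rich or silent chromatin. Its histone-reading domain recognises histone H3 that is methylated at lysine 9, the mark written by Suv39h1 and Suv39h2. Inherited mutations of the gene cause a syndrome with intellectual disability and alpha thalassaemia, a shortage of alpha-globin in red cells, which is why erythroid cells are often studied beside fibroblasts.

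Domains made up a minority of peaks and a large part of the sequence under peaks. They were 16.1% of the 1385 MEF peaks on the 16 chromosomes and held 833.1 of 1929 kb, or 43.2% of the base pairs. Their median width was 2958 bp, with the middle 50% between 2404 and 4251 bp. The narrower peaks had a median of 884 bp. Only 39 domains reached 5000 bp and 3 exceeded 10000 bp. Since width chose the domains, these values describe the choice and are not a finding.

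The threshold did not fall in a break between kinds of peak. The domains just inside it were chr19:5443996-5445995 at 2000 bp, chr17:3081414-3083415 at 2002 bp and chr9:117143344-117145354 at 2011 bp. The peaks just outside were chr2:167626020-167628017 at 1998 bp, chr16:11422862-11424850 at 1989 bp and chr8:129781511-129783498 at 1988 bp. The chromosome 8 peak lay 194 bp from a domain of 3143 bp, so members and non-members could be direct neighbours.

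The 10 widest domains lay on 9 chromosomes, and 5 of them overlapped a foetal liver peak. The widest was chr1:172993643-173014931, of 21289 bp, which is in both lists. Next was chr2:157376956-157393095, of 16140 bp, whose nearest foetal liver peak was 574.6 kb away. A pair on chromosome X followed at positions 3 and 6: chrX:166423463-166437580 of 14118 bp and chrX:166437863-166447046 of 9184 bp. These were separated by 282 bp, and both are in the foetal liver list. The domain chr8:79966910-79976700 (9791 bp) had its nearest foetal liver peak 2359 kb away, the greatest such distance among the 10. The domain chr12:55830712-55840314 (9603 bp) was in both lists. The domains chr5:144012088-144021138 (9051 bp), chr7:134750401-134759058 (8658 bp) and chr15:59612867-59621258 (8392 bp) were in the MEF list alone, with foetal liver peaks 154.4, 578.6 and 572.0 kb away. The tenth, chrY:2689152-2697314 (8163 bp), was in both.

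A few domains share sequence with other peaks of their own list. The chromosome 1 domain of 21289 bp encloses a second domain, chr1:173008916-173012859 (3944 bp). The chromosome Y domain encloses 2 narrower peaks of 335 and 716 bp. The 223 domains therefore cover 222 separate regions, and 829.2 kb when shared sequence is counted once.

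Every one of the 16 chromosomes held at least 1 domain, and the share of peaks that were wide differed in size among them. On average there were 0.113 domains per Mb. Chromosome 15 had 25 domains among 102 peaks (24.5%, exact 95% interval 16.5 to 34.0%) and chromosome 1 had 23 among 98 (23.5%, 15.5 to 33.1%). Chromosome 14 had 3 among 52 (5.77%, 1.21 to 15.9%) and chromosome 18 had 5 among 68 (7.35%, 2.43 to 16.3%). Intervals here and below cover the counting of peaks within 1 library only. Of the 14 autosomes, 12 had an interval that contained the pooled 16.1%.

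Per unit of length the order changed, because some chromosomes carried more peaks of every width. Chromosomes 19 and 15 had 0.245 and 0.242 domains per Mb, the highest values, although on chromosome 19 only 14.6% of peaks were wide. Chromosome 17 had 0.178 per Mb. Chromosomes X and 14 were lowest, at 0.0180 and 0.0240 per Mb. All 3 domains of chromosome X and the only domain of chromosome Y were also foetal liver peaks.

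**Figure D1:**
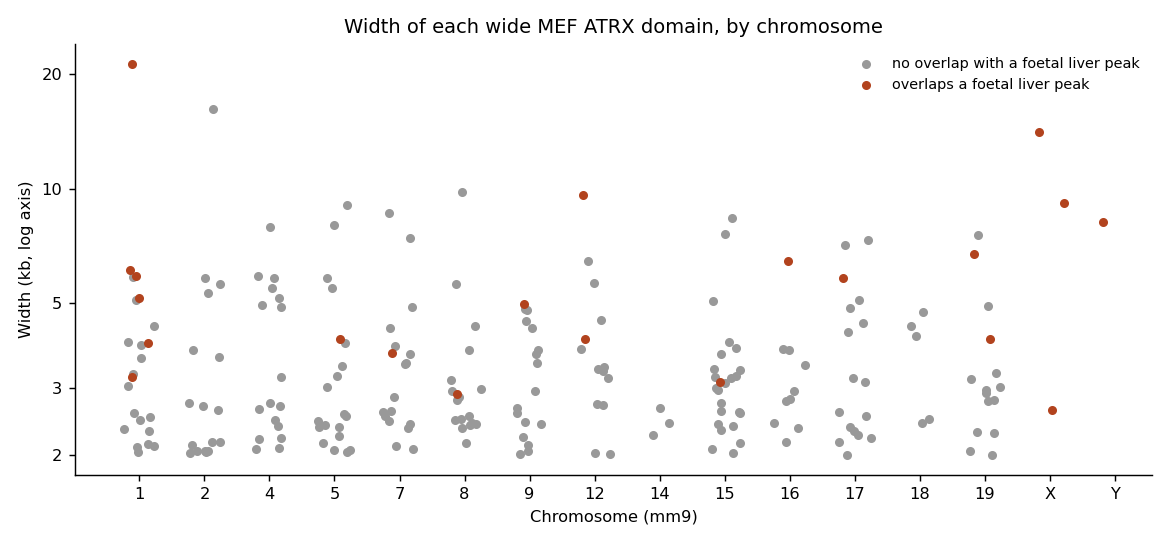
Width in kb (log axis) of each of the 223 wide MEF ATRX domains, by mm9 chromosome. Each point is 1 domain, red where it overlaps a foetal liver peak (21 domains) and grey where it does not (202). Points are spread sideways for legibility only. Among the 39 domains of 5000 bp and over 11 are red, and all points of X and Y are red.

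Domains overlapped foetal liver ATRX peaks more often than narrower peaks did. By an overlap of at least 1 bp, 21 of 223 domains were shared (9.42%, exact 95% interval 5.92 to 14.0%). For narrower peaks it was 31 of 1162 (2.67%, 1.82 to 3.77%), and for all MEF peaks of these chromosomes 3.75%. The difference was 6.75 percentage points (Newcombe 95% interval 3.39 to 11.4). No p-value is given, because peaks of 1 library are not replicates and the difference compares 2 lists, not cell types. Without chromosome 1, which held 6 shared domains, the difference was 4.74 points, the lowest value when chromosomes were left out singly.

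Nearly all shared peaks had the same boundaries in both lists. Of the 21 shared domains, 20 matched a foetal liver peak to the base at both ends, and the remaining one is the domain enclosed in the widest. The same held for 29 of the 31 shared narrower peaks. Overlap of the midpoint, or of 50% of the shorter peak, gave the same 21 and 31 peaks. How such identical boundaries arose is not given in the sources used here and was not tested. Whether the lists were called independently is not stated either, so the overlap shares may not compare separate calls. Apart from the enclosed peaks, no peak of either class overlapped a foetal liver peak with other boundaries.

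The overlap was concentrated at the upper end of the widths. Of domains of 5000 bp and over, 11 of 39 were shared (28.2%, exact 95% interval 15.001 to 44.9%). From 3000 bp up to 5000 bp it was 8 of 69 (11.6%, 5.14 to 21.6%), and from 2000 bp up to 3000 bp 2 of 115 (1.74%, 0.211 to 6.14%). The narrowest domains thus had no higher share than the class just below the threshold, from 1000 bp up to 2000 bp, where 23 of 457 peaks were shared (5.03%, 3.22 to 7.46%). Peaks from 500 bp up to 1000 bp had 7 of 527 (1.33%) and those under 500 bp 1 of 178 (0.562%). The shared domains had a median width of 5171 bp, and the other 202 a median of 2784.5 bp.

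The shared domains lay on 12 of the 16 chromosomes, with 6 on chromosome 1. Besides those named above, the domains chr19:5813182-5819908 (6727 bp), chr16:3231612-3238062 (6451 bp) and chr17:39979943-39985774 (5832 bp) were shared. The chromosome 17 domain stood alone, with its nearest MEF peak 3765 kb away. On chromosome 1 the shared domains were chr1:72300606-72306712 (6107 bp), chr1:72271843-72277749 (5907 bp), chr1:194571220-194576390 (5171 bp) and chr1:173430545-173433742 (3198 bp), beside the widest and the one inside it. Next in width came chr9:65045474-65050466 (4993 bp), chr12:55816891-55820930 (4040 bp), chr19:41527173-41531208 (4036 bp) and chr5:147514934-147518956 (4023 bp). The narrowest shared domain was chrX:6647446-6650075, of 2630 bp. Chromosomes 2, 4, 14 and 18 had no shared domain, with 17, 17, 3 and 5 domains respectively.

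Counted from foetal liver, the shared peaks were a larger part of the wide than of the narrower peaks. Since nearly all shared peaks have the same boundaries in both lists, this count repeats the same regions with another denominator. It is not a second line of evidence. On the 16 chromosomes 33 of 665 foetal liver peaks spanned 2000 bp or more, and 20 of them were MEF domains (60.6%, exact 95% interval 42.1 to 77.1%). The other 13 overlapped no MEF peak of any width. Of the 632 foetal liver peaks under 2000 bp, 29 overlapped a MEF peak (4.59%, 3.09 to 6.52%), and of all 665 it was 49 (7.37%). The same 20 peaks were thus 60.6% of the wide foetal liver peaks, and the domains they met were 9.42% of the wide MEF peaks. The MEF list is longer, and the depth behind either list is unknown.

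**Figure D2:**
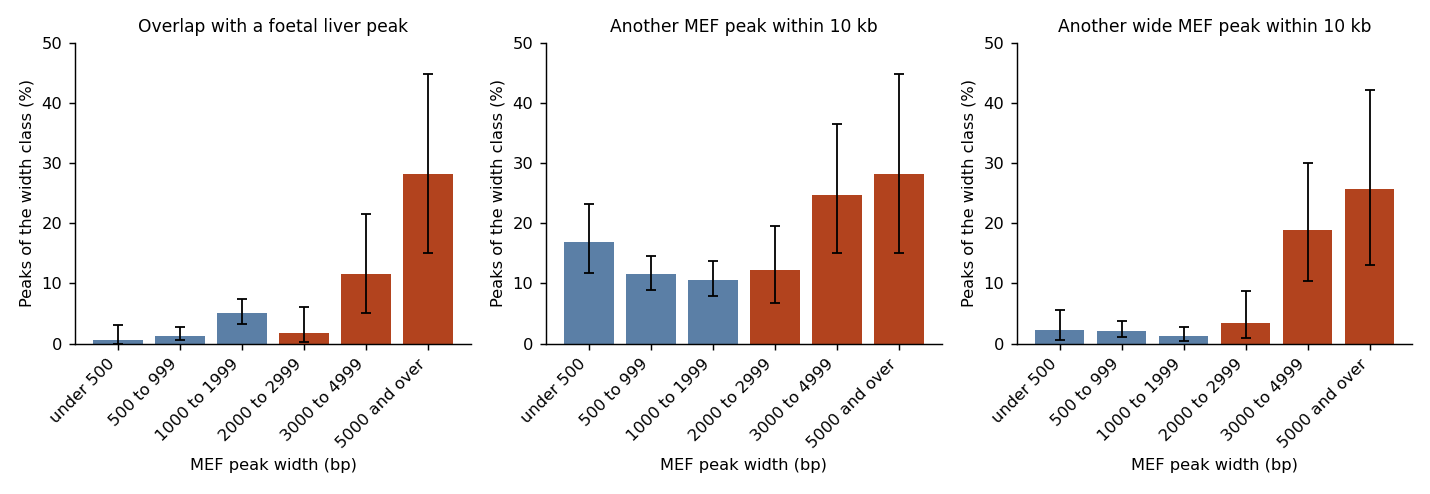
Share of MEF peaks in 6 width classes (bp) that overlap a foetal liver peak (left), that have another MEF peak within 10 kb (middle) and that have another wide MEF peak within 10 kb (right). Bars are percent of the peaks of a class, blue for narrower peaks and red for domains, and lines are exact 95% intervals. Classes from 3000 bp up have the highest bars in all 3 panels. In the middle panel their intervals overlap those of some classes below 3000 bp. In the left panel this holds for the class from 3000 bp up to 5000 bp. Domains under 3000 bp are close to the narrower classes.

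Outside direct overlap, no difference in closeness to foetal liver peaks was detectable between domains and narrower peaks. Among peaks without overlap, 21 of 202 domains had a foetal liver peak within 100 kb (10.4%, exact 95% interval 6.55 to 15.5%). It was 135 of 1131 narrower peaks (11.9%, 10.1 to 14.0%), and 11.7% of all. The difference was -1.54 percentage points, with an interval from -5.58 to 3.74 that includes 0. The median distance to the nearest foetal liver peak was 666.2 kb for domains and 676.6 kb for narrower peaks. Of the 28 unshared domains of 5000 bp and over, 2 had a foetal liver peak within 100 kb and 0 had one within 10 kb, which allows a share of up to 12.3% (exact 95% interval).

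In 8 of 202 unshared domains the nearest foetal liver peak was within 10 kb (3.96%, exact interval 1.73 to 7.65%). It was 23 of 1131 narrower peaks without overlap (2.03%, 1.29 to 3.04%) and 2.33% of all. The difference was 1.93 percentage points, with an interval from -0.256 to 5.65 that covers both signs. The closest of the 8 domains was chr9:65041049-65045361 (4313 bp), 112 bp from the shared domain of 4993 bp beside it. For chr1:72288837-72293190 (4354 bp) the distance was 0.211 kb, and for chr12:55798083-55801485 (3403 bp) 0.361 kb. Each of these 3 domains neighboured a shared domain within 20 kb, so unshared and shared domains sat side by side there. The next 3 had no domain within 20 kb. They were chr1:90155053-90157156 (2104 bp), 1.67 kb from a foetal liver peak, a domain of 4746 bp on chromosome 18, at 2.02 kb, and chr15:101975687-101977712 (2026 bp), at 3.17 kb.

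Domains had near neighbours more often than narrower peaks when distance was taken from edge to edge. Within 10 kb, 42 of 223 domains had another MEF peak (18.8%, exact 95% interval 13.9 to 24.6%), against 139 of 1162 narrower peaks (12.0%, 10.2 to 14.0%) and 13.1% of all. The difference was 6.87 percentage points (Newcombe interval 1.87 to 12.8), and 4.76 points (-0.150 to 10.7) without chromosome 17. Between midpoints, with all 16 chromosomes, it was 1.90 points (-2.36 to 7.22), an interval that includes 0. How much of the edge-to-edge difference comes from width itself was not tested. At 100 kb from edge to edge, 51.6% of domains (44.8 to 58.3%) and 39.5% of narrower peaks (36.7 to 42.4%) had a neighbour. No midpoint share was computed at 100 kb. The median distance to the next MEF peak was 89.7 kb for domains and 167.4 kb for narrower peaks. Between midpoints these medians were 91.4 and 168.3 kb.

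The near neighbours of domains were often domains themselves. Of the 42 domains with a MEF peak within 10 kb, 27 had a domain there (64.3%, exact 95% interval 48.0 to 78.4%). Of the 139 narrower peaks with such a neighbour, 21 had a domain there (15.1%, 9.60 to 22.2%). For both classes together it was 48 of 181 (26.5%). Counting every peak, 12.1% of domains (8.13 to 17.1%) and 1.81% of narrower peaks (1.12 to 2.75%) had a domain within 10 kb. For both classes together it was 3.47%. At 100 kb the shares were 22.9% (17.5 to 28.9%), 9.81% (8.16 to 11.7%) and 11.9%. Each close pair of domains counts both its members. Within 1 kb, 16 domains had another domain, and these shares were not recounted after merging close peaks. Width was the measure that chose the domains, so these shares are given as a description of how widths lie along the chromosomes.

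Some neighbouring domains were separated by very short gaps, though most were not. The median gap was 125.3 kb between neighbouring domains, 337.9 kb between a domain and a narrower peak and 424.5 kb between narrower peaks. Of 53 neighbouring pairs in which both peaks were domains, 8 had a gap of up to 1 kb (15.1%, exact 95% interval 6.75 to 27.6%). It was 3 of 329 pairs of a domain and a narrower peak (0.912%, 0.188 to 2.64%) and 21 of 985 pairs of narrower peaks (2.13%, 1.32 to 3.24%). The shortest gap between domains, 105 bp, divided chr5:144003955-144011982 (8028 bp) from chr5:144012088-144021138 (9051 bp). A gap of 112 bp divided chr9:65041049-65045361 from the shared domain chr9:65045474-65050466, so that a shared and an unshared domain were direct neighbours. A gap of 113 bp divided chr19:57049319-57054239 (4921 bp) from chr19:57054353-57056398 (2046 bp). The next 2 gaps, 132 and 177 bp, were both at the start of chromosome 17. The rule by which the authors' caller joined or split peaks is not given in the sources used here, so a domain may be part of a longer enriched stretch.

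**Figure D3:**
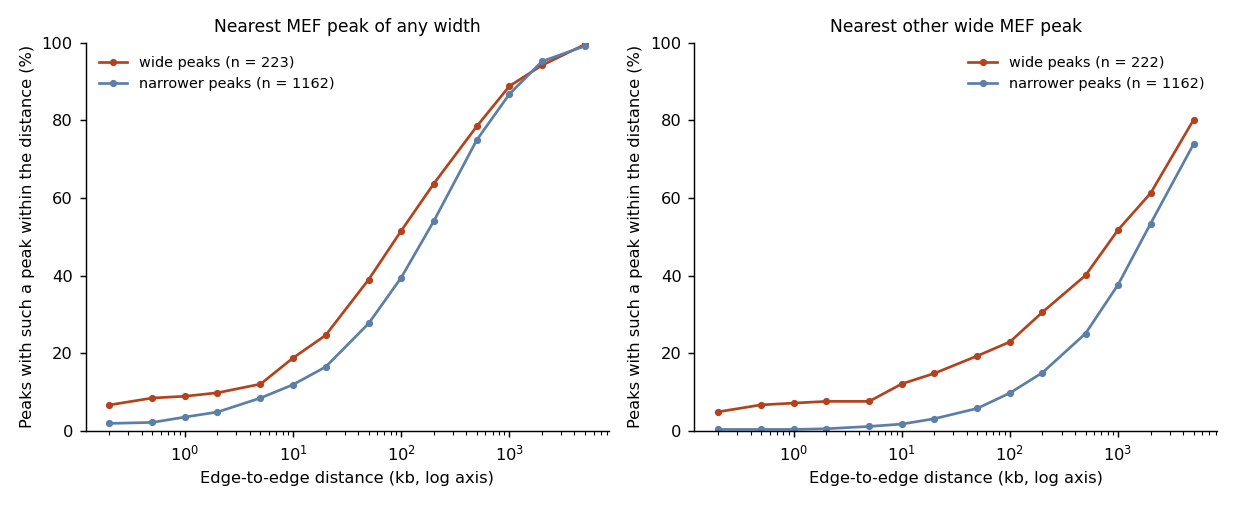
Percent of domains (red) and narrower peaks (blue) that have a MEF peak of any width (left) or another wide MEF peak (right) within a given edge-to-edge distance in kb, on a log axis. At 10 kb the left curves stand at 18.8% and 12.0%, and the right curves at 12.2% and 1.81%. The red curve on the right counts the 222 domains that have another domain on their chromosome. The left curves meet at the longest distances.

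Most domains stood alone among domains. Chained at gaps of up to 100 kb, the 223 domains formed 193 stretches, of which 172 held a single domain and 16 held 2. The 51 domains in stretches of 2 or more included 5 stretches with at least 3. The longest was on chromosome 17, where 6 domains of 2002 to 7333 bp and 1 narrower peak lay in 76.8 kb (3006569 to 3083415). It began 6.57 kb after the unsequenced first 3 Mb of the chromosome, held no foetal liver peak, and was also the 1 Mb window with most domains. The first 2 of its domains, chr17:3006569-3013674 (7106 bp) and chr17:3013807-3021139 (7333 bp), were the widest there.

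The other stretches differed in how far foetal liver peaks accompanied them. On chromosome 9 (21993169 to 22042742), 4 domains of 2577 to 4813 bp lay in 49.6 kb with no foetal liver peak. On chromosome 5 (144003955 to 144035832), 3 domains of 5489 to 9051 bp lay in 31.9 kb, likewise with none. On chromosome 1 (72271843 to 72306712) 3 domains lay in 34.9 kb, and 4 foetal liver peaks lay in the same stretch. The outer domains, of 5907 and 6107 bp, were shared, and the middle one, of 4354 bp, was flanked by foetal liver peaks of 1005 and 440 bp. On chromosome 12 (55798083 to 55840314) 3 domains lay in 42.2 kb with 3 foetal liver peaks. The domains of 4040 and 9603 bp were shared there, and the third, of 3403 bp, was followed by a foetal liver peak of 490 bp.

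Towards the centromere side, the difference between domains and narrower peaks depended on the window and the setting. The main window was the first 10 Mb of assembled sequence, and the first 5 Mb was an alternative. Mouse chromosomes have their centromere at one end, and the mm9 assembly begins after a gap of 3 Mb. In the first 10 Mb after the gap lay 33 of 222 domains (14.9%, exact 95% interval 10.5 to 20.2%; chromosome Y has no such gap and was left out). It was 118 of 1160 narrower peaks (10.2%, 8.49 to 12.1%) and 10.9% of all, while this window is 7.84% of the sequence. The difference was 4.69 percentage points (Newcombe interval 0.203 to 10.2). It was 1.64 points (-1.43 to 5.37) with all chromosomes of the genome in the count, 2.59 points (-1.66 to 8.03) without chromosome 17, and 3.18 points (-0.939 to 8.44) without peaks in the first 100 kb. The interval also included 0 when any one of chromosomes 4, 5, 7, 15 and 19 was left out.

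Of those 33 domains 30 lay in the first 5 Mb and 3 in the next 5 Mb. The first 5 Mb held 13.5% of domains (9.31 to 18.7%), 5.95% of narrower peaks (4.66 to 7.47%) and 7.16% of all, against 3.92% of the sequence. Domains exceeded narrower peaks by 7.57 points (Newcombe interval 3.40 to 12.8), and by 6.06 points (2.34 to 11.025) when peaks in the first 100 kb were left out. The 5 Mb window was not recounted without single chromosomes, such as chromosome 17, or with all chromosomes of the genome. Chromosome 17 held 8 of the 30 domains and 12 of the 69 narrower peaks in this window. Density was 0.733 domains per Mb in the first 1 Mb, 0.317 in the next 4 Mb and 0.0400 between 5 and 10 Mb. The first value rests on 11 domains, of which 6 form the long stretch on chromosome 17, so its height depends largely on 1 locus. Narrower peaks had 1.67, 0.733 and 0.653 per Mb in the same bins.

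The domains of the first 5 Mb were spread over 11 chromosomes, with 8 on chromosome 17 and 4 each on chromosomes 7 and 19. The domain nearest the gap was chr17:3006569-3013674, the first of the long stretch. A domain of 5837 bp on chromosome 4, chr4:3008198-3014034, had its midpoint 0.0111 Mb from the gap and its nearest MEF peak 2676 kb away. Chromosomes 12 and 16 each had a domain 0.23 to 0.24 Mb from the gap, chr12:3234603-3241076 (6474 bp) and the shared domain chr16:3231612-3238062 (6451 bp). Of the 30, 3 were shared, on chromosomes 16, 19 and X.

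Towards the telomere side, no difference between domains and narrower peaks was detectable. In the last 5 Mb lay 18 of 222 domains (8.11%, exact 95% interval 4.88 to 12.5%), 109 of 1160 narrower peaks (9.40%, 7.78 to 11.2%) and 9.19% of all. The window is 3.92% of the sequence. The difference was -1.29 percentage points with an interval from -4.73 to 3.32, which includes 0. Chromosomes 1 and 15 had 4 of the 18 domains each and chromosome 8 had 3.

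Only 2 domains lay in the last 1 Mb, and both belong to the shared pair on chromosome X, whose edges were 203.3 and 212.7 kb from the end. The next were chr15:101975687-101977712, at 1517 kb, chr8:129778174-129781316 (3143 bp), at 1958 kb, and chr8:129756323-129759107 (2785 bp), at 1980 kb. The last 1 Mb held 14 of 1160 narrower peaks (1.21%, 0.661 to 2.02%) and 1.16% of all, and it is 0.784% of the sequence. Telomeric repeats themselves were not analysed here.

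**Figure D4:**
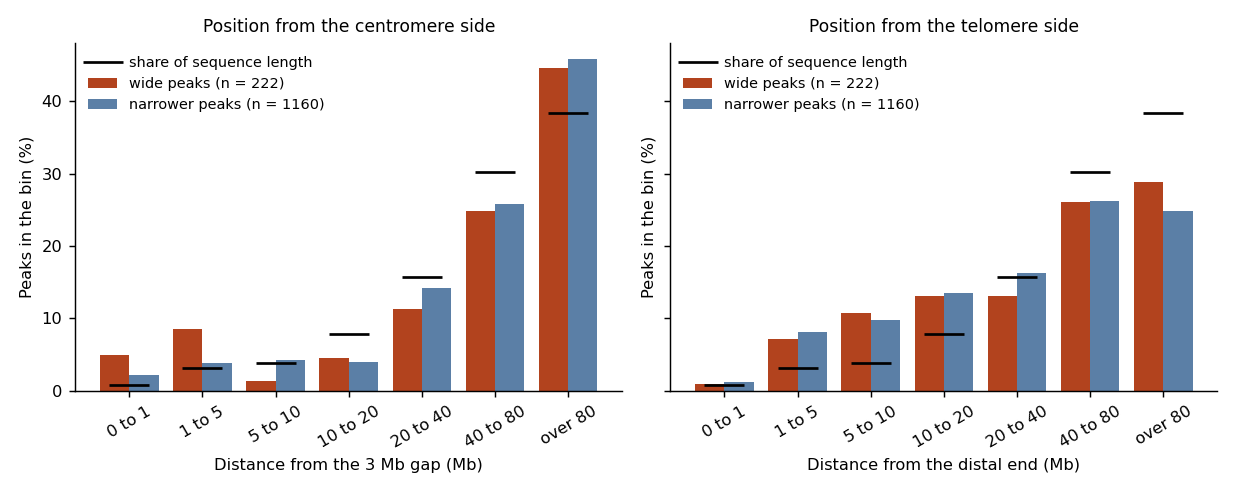
Percent of domains (red, 222) and narrower peaks (blue, 1160) in bins of distance in Mb from the 3 Mb gap (left) and from the distal end of the chromosome (right), chromosome Y left out. Black marks give the percent of sequence length in each bin. Red bars exceed blue ones in the first 2 bins on the left, and in the last 5 Mb on the right they do not.

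Chromosomes did not all show the pooled pattern. The share of peaks that overlapped a foetal liver peak was higher in domains than in narrower peaks on 11 chromosomes, lower on 3 and equal on 2. The share with a MEF peak within 10 kb was higher in domains on 9 chromosomes, lower on 6 and equal on 1. It was largest on chromosome 17 among autosomes, at 8 of 17 domains (47.1%) against 14.3% of narrower peaks. The long stretch near the gap supplied 5 of those 8. On chromosomes 2, 4 and 7 a single domain had such a neighbour, among 17, 17 and 18 domains.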

How the data were processed

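ATRX ChIP-seq of C57BL/6 MEFs and of C57BL/6 erythroid foetal liver cells was analysed through 1 peak list each. Reads were aligned with Bowtie 0.12.3 to mm9, per the submitters' processing notes. The caller, threshold, control, any pooling and any removal of artefact-prone regions were not stated in any source used here. The deposited files have 3 columns (chromosome, start, end) and no heights or counts, so depth is unknown. No MEF or foetal liver peak ends past the mm9 length of its chromosome, and 1 MEF peak ends on the last base. No mm9 sequence or annotation was used here, so no sequence is printed and no gene named.

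Width is end minus start, and starts are printed counted from 1. Distances run from edge to edge, position from the midpoint. Chromosome lengths came from GenomeInfoDb 1.38.1, and the other values from scipy 1.17.1, pandas 2.3.3 and numpy 2.4.6 under Python 3.11.15. Shares have exact Clopper-Pearson 95% intervals and differences Newcombe hybrid-score intervals. No test was made, since each group has 1 library. Functions were tested on lists with planted overlaps.

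Members, thresholds and named regions were chosen with earlier results of these data known. Named were the 10 widest domains, shared domains (the 15 widest), the 5 closest pairs, the 5 nearest each chromosome end, the densest stretch and window, and 3 peaks on each side of the threshold. The narrowest shared domain, the shared domain of 3198 bp on chromosome 1, the closest unshared domains, the chromosome 12 domain near the gap and the stretches after the longest were chosen after their values were seen.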

Additional observations from a re-analysis of the deposited data

How the results depend on the processing

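No paired analysis was possible because each group holds 1 library. A value was taken as moved where an alternative left the main interval. With a threshold of 3000 bp 108 domains remained: 17.6% overlapped a foetal liver peak, 15.01 percentage points above narrower peaks, and 25.9% had a MEF peak within 10 kb, 13.9 points above. At 1500 bp these differences were 6.16 and 3.68 points (-0.337 to 8.20 for the second). Domains were 26.1% of peaks at 1500 bp and 7.80% at 3000 bp. The share of domains with a MEF neighbour was 13.9% when peaks within 1 kb were merged first. Narrower peaks then had 8.70%, a difference of 5.21 points. With peaks within 100 kb counted once, the shares were 12.4% and 7.03%, a difference of 5.40 points. For domains it was 8.97% within 1 kb, 51.6% within 100 kb and 13.004% between midpoints. Narrower peaks had 3.61%, 39.5% and 11.1% there. Of these neighbour settings, only midpoints gave a difference whose interval included 0. The share of unshared domains near a foetal liver peak was 3.96% within 10 kb and 63.4% within 1 Mb. Narrower peaks had 2.03% and 60.2%, and the interval of either difference included 0. Domains in the last 1 Mb and 2 Mb were 0.901% and 2.25%, and in the first 1 Mb 4.95%. Against narrower peaks of 1000 bp and over only, the overlap difference was 4.38 points (0.401 to 9.23) and the neighbour difference 8.33 points (2.77 to 14.498). For the first 10 Mb the interval of the difference included 0 at both other thresholds (2.88 and 3.35 points) and with peaks within 100 kb counted once (3.70 points).

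Leaving out each of the 16 chromosomes gave 7.50 to 10.2% of domains shared (4.74 to 7.53 points above narrower peaks) and 16.5 to 20.0% with a neighbour (4.76 to 8.02 points). For foetal liver peaks within 100 kb it gave 9.19 to 11.5% (-2.41 to 0.0754 points). For the last 5 Mb it gave 7.04 to 8.82% (-2.55 to -0.295 points), and for the first 10 Mb 12.2 to 16.6% (2.59 to 5.89 points). The interval of the difference included 0 in 6 of the 16 for the first 10 Mb, in 1 for the neighbours (without chromosome 17, -0.150 to 10.7) and in 0 for the overlap. With all chromosomes, 26 of 380 wide peaks were shared (6.84%), 4.57 points above narrower ones. Settings that left out peaks near the gap, or chromosomes X and Y, or joined overlapping peaks, were chosen after seeing the data. With X and Y left out 7.76% of domains were shared.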
